A study of Rattus norvegicus with 8 samples.

Results

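The subject is the nuclear genes for subunits of the mitochondrial respiratory chain and ATP synthase in granulosa cells of the rat ovary, which surround and nourish the oocyte. Members were all genes whose symbols begin with Ndufa, Ndufb, Ndufc, Ndufs or Ndufv (assembly factors named Ndufaf left out), with Uqcr, with Cox4 to Cox8 or with Atp5, plus Sdha, Sdhb, Sdhc and Sdhd, and that had a probe set naming 1 gene. This gave 80 genes of the 14217 named on the arrays, of which 36 belong to complex I, 4 to complex II, 7 to complex III, 17 to complex IV and 16 to complex V. A measured gene is one whose probe set lay above its array's median signal on at least 2 arrays, and 74 of the 80 members passed, as did 10513 of all named genes. Of these 74, 71 lay above the median on all 8 arrays. No probe set naming Cox7a2, Atp5mc1 or Atp5mc2 alone was used here.

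The samples were 8 Affymetrix arrays, each of granulosa cell RNA from 1 sample. Per the series' design text, immature rats were given eCG, a gonadotropin that drives follicle growth. After 24 h they were given either antibody raised against eCG, which sent follicles into atresia (degeneration), or pre-immune serum, with which follicles went on developing. Of the oocytes, 30 to 50% developed to term in the serum group and 0% in the antibody group. The labels tell the arrays apart by a number alone, so the treatment behind each array is unknown here and no groups were compared. Nothing in the labels gives the animals or follicles behind an array. Arrays are named by label number, and no p-value is given. Lists of 8 values follow the order 2074, 2076, 2194, 2195, 2196, 2197, 2198 and 2199.

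The respiratory chain sits in the inner mitochondrial membrane. Complex I takes electrons from NADH and complex II from succinate, complex III passes them on to cytochrome c, complex IV hands them to oxygen, and complex V, the ATP synthase, uses the proton gradient to make ATP. Most subunits come from nuclear genes and a few from the mitochondrial genome, so the complexes need both to be expressed. In granulosa cells mitochondria also host the first step of steroid synthesis.

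Promoters of these genes are known for sites of NRF1, a nuclear respiratory factor, and of YY1 and the ERR receptors, other regulators of mitochondrial genes. The RefSeq promoter table (GRCr8 assembly) held 72 of the 80 members, and each promoter window ran from 250 bases before to 50 after the start of the gene. On either strand, GCGCANGCG (the NRF1 motif searched) was in 17 of the 72, or 23.6%, against 12.9% of the 9818 promoters of measured genes and 5.80% of the 33469 promoters in the table. The YY1 motif searched, ATGGCGGC, was in 11, or 15.3%, against 5.75% and 2.53%. Of those 11, 9 were complex I genes, which make up 34 of the 72 promoters. In all 11 but Ndufs1 the YY1 match began after the start of the gene, not before it. TCAAGGTCA, the ERR motif, was in 2 members. The ETS motif CCGGAAG was in 20 members (27.8%, against 17.4% of measured genes), the SP1 motif GGGCGG in 31 (43.1%, against 61.4%) and the CCAAT box in 25 (34.7%, against 37.5%). No search letters of NRF1, YY1 or ERR overlap each other in the stretches below. A match describes letters only and was not tied to binding in these cells.

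To show what such a promoter looks like, the 120 bases before the start are given for 1 gene of each complex, chosen because a match lay inside them, 5′ to 3′ on the gene's own strand, with NRF1, YY1 or ERR matches in capitals. The capitals mark a YY1 match 32 to 25 bases before the start in Ndufs1 (chr9:72073600-72073719, minus strand). In Sdha (chr1:30764481-30764600, plus strand) they mark NRF1 matches at 89 to 81 and 46 to 38 bases before it. In Uqcrc1 (chr8:118467881-118468000, plus strand) NRF1 matches lie 63 to 55 and 39 to 31 bases before the start. Cox7a2l (chr6:16936481-16936600, plus strand) has an NRF1 match 13 to 5 bases before the start, and Atp5mc3 (chr3:79220700-79220819, minus strand) an ERR match 57 to 49 bases before it.
Ndufs1: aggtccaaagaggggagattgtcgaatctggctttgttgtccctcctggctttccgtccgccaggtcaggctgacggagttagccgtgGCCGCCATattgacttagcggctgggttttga
Sdha: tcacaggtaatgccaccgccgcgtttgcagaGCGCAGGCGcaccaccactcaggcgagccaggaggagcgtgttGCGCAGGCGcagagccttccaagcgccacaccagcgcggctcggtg
Uqcrc1: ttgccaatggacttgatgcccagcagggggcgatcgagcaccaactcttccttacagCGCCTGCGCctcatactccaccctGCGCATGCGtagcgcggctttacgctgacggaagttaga
Cox7a2l: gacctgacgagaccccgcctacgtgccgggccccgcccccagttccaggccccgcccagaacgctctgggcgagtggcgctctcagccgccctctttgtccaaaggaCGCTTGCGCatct
Atp5mc3: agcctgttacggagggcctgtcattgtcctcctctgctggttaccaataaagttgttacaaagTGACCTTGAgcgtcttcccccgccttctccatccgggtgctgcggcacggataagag

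Of the granulosa markers, 9 of the 10 listed had a probe set and all 9 were measured, and their summed signal, most of it from Cyp11a1 and Fst, ran from 380772 to 515934. Single markers moved apart within that sum: Cyp19a1 (aromatase) was lowest on array 2076, at 987, with up to 20564 elsewhere, while Foxl2 (an ovarian transcription factor) and Inha (the inhibin alpha chain) were highest on arrays 2074 and 2076. Foxl2 gave 10432 and 8098 there, with 3572 to 6927 on the rest, and Inha 90530.1 and 69907, with 26724 to 54083. None of the other measured granulosa markers had both arrays above or both below the other 6. Inhba, an inhibin and activin chain, was lowest on array 2076, at 19181, with 23347 to 72058 elsewhere. Arrays 2074 and 2076 stood apart from the other 6 across the whole array. Among all measured genes 13.6% were higher on both than on any other array and 14.5% were lower on both, the largest shares of the 28 pairs of arrays on either side. The 3′ to 5′ ratio of the beta-actin controls, a measure of RNA integrity, was 11.0 and 12.1 on these arrays and 4.67 to 8.08 on the others. For GAPDH the ratio ran from 5.27 to 8.81 with no such split. The summed signal of the measured erythroid markers (Hbb and Alas2, of 5 listed) was 48897 and 13218 on these arrays, against 3797 to 10335 on the rest. Most of that sum was Hbb. Alas2 gave 3193 and 645 on arrays 2074 and 2076, with 88.3 to 669 on the rest, so array 2076 did not stand apart in it. Theca and stroma markers (8 measured of 11 listed) summed to between 3448 and 7963, and array 2074, with 7917, was second to array 2198. Endothelial (3 of 6), macrophage and leukocyte (5 of 8) and oocyte (2 of 8) markers summed to 303 to 2930, 3909 to 8492 and 259 to 1878. Within the macrophage list Csf1r was lowest on arrays 2074 and 2076, at 179 and 526, with 871 to 1891 elsewhere. The other measured markers of that list had no such split. Lyz2, the brightest on every array, was highest on array 2074, at 5460. Cd74 gave 655 and 781 on arrays 2074 and 2076, with 360 to 823 elsewhere. Aif1 was lowest on array 2074, at 120, and next on array 2197, at 301. The part of RNA quality or of other cells in the differences below was not tested, and in RNA of whole samples fewer cells of a type and less RNA per cell cannot be told apart.

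Signals of the subunit genes differed less between arrays than those of most genes. The spread of a gene is given as its inner range: the most extreme array at each end is dropped and the next ones, on the log2 scale, are subtracted. The median log2 inner range of the 74 measured members was 0.52, or 1.43-fold, against 0.78, or 1.71-fold, over all measured genes, and 56 of the 74 lay under that all-gene median. Of the 74 members, 9 (12.2%) had inner ranges of 2-fold or more, against 29.8% of all measured genes. Bright genes varied less than dim ones: of 5 equal classes of genes by signal, the brightest had 17.7% of its genes past 2-fold and the dimmest 41.5%. In the brightest class, which held 52 members, the median log2 inner range was 0.50 for the members and 0.60 for all genes, and 7 of the 52 members passed 2-fold. The 9 were Atp5f1d, Atp5f1a and Atp5f1b of ATP synthase, Ndufv2 and Ndufs8 of complex I, Uqcrfs1 of complex III, Cox7a1 of complex IV and Sdhb and Sdhc of complex II. Within 0.1 log2 of the line, 4 members lay just past it and 5 just under, Atp5mk the nearest of those under. The count was 1 without array 2074 (18.8% of all measured genes), 2 without array 2076 (18.7%), 5 without array 2195 (21.8%) and 0 over arrays 2194 to 2199 alone (12%). Fewer arrays narrow the inner range of every gene, and where only arrays 2074 and 2076 are apart, leaving out either makes the other the dropped extreme.

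**Figure D1:**
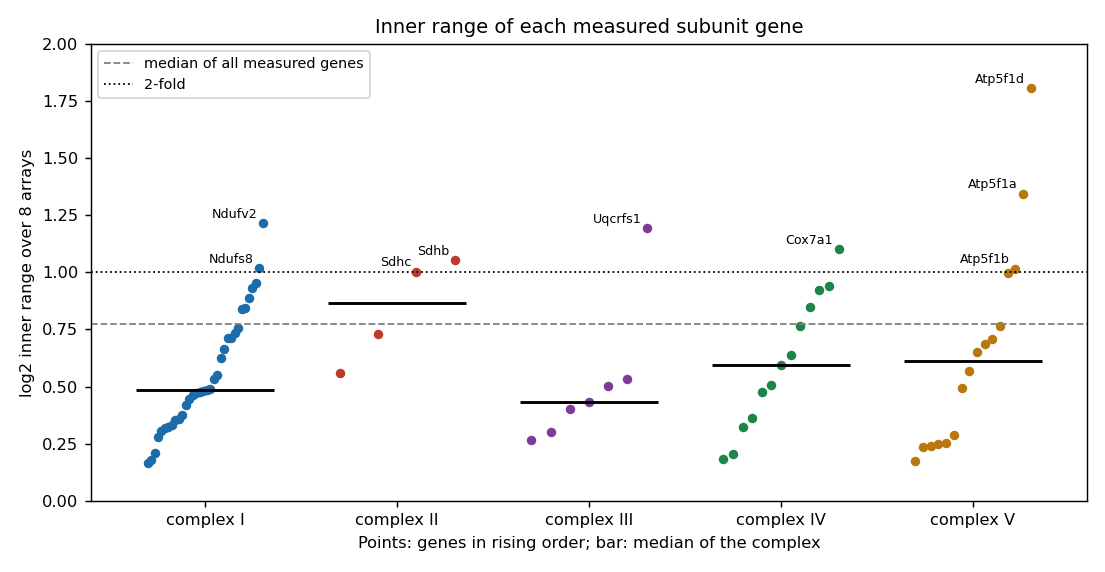
Log2 inner range over 8 arrays (vertical axis) of each of the 74 measured members (points), by complex, with the median of each complex as a bar, the median of all measured genes dashed and the 2-fold line dotted. Most points lie below the dashed line at 0.78, and Atp5f1d is the highest at 1.81.

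In all of the 9 members past 2-fold except Ndufs8 and Cox7a1, arrays 2074 and 2076 lay above the other 6. The share of all genes past 2-fold with these arrays apart was not computed. Both lay above all other 6 arrays in 16 of the 74 members, against 13.6% of all measured genes, and both lay below them in 11, against 14.5%. Among the 6758 genes above the median on all 8 arrays, a nearer background for genes as bright as these, the shares were 17.2% and 18%, with 16 and 11 of the 71 members that lay above it. With the scaling used, the members as a set were thus near the shares of bright genes. The 16 were not spread evenly over the chain: 4 of the 6 measured core subunits of complex I, 3 of the 4 complex II genes and 3 of the 5 measured F1 subunits of ATP synthase were among them, and 0 genes of these classes were among the 11. With no scaling of the arrays the split was 19 above and 10 below, against 16.1% and 11.8% of all measured genes, and after quantile normalization 23 and 8, against 15.3% and 11.3%. Of the 27 genes, 26 kept their side with no scaling and 24 after quantile normalization; Ndufb2 lost it under both and Ndufa12 and Ndufa3 under quantile normalization.

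**Figure D2:**
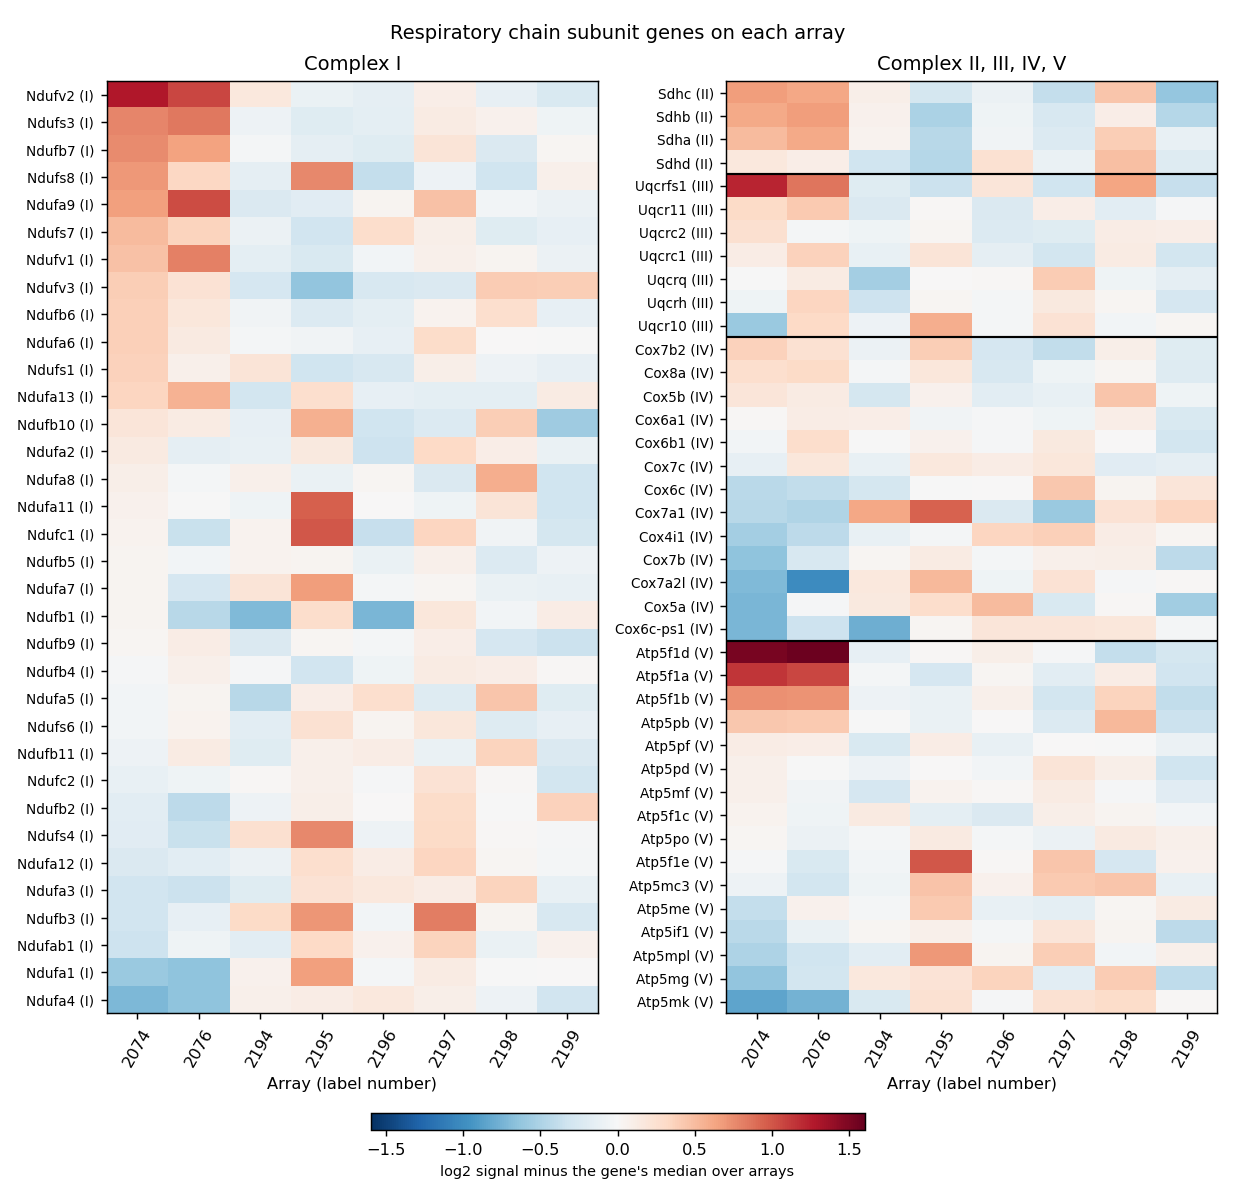
Log2 signal of each measured member minus its own median over the arrays (colour, limits ±1.6), with arrays in columns and genes in rows, ordered within a complex by the value on array 2074. Arrays 2074 and 2076 are red together for Ndufv2, Uqcrfs1, Atp5f1d and Atp5f1a and blue together for Ndufa4, Cox7a2l and Atp5mk.

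In complex V the members past 2-fold, 3 of 16, all belonged to the catalytic head, the F1 part. Atp5f1d, the delta subunit in the stalk of the head, had signals of 15357, 15915, 4861, 5411, 5703, 5275, 4119.9 and 4393. Arrays 2074 and 2076 were each at least 2.69 times any other array, and the other 6 ranged from 4119.9 to 5703. Its inner range of 3.50-fold was the widest of the members at the floor used, though not of Cox7a1, described below, with a lower floor or none, and it fell to 1.29-fold at the lowest without array 2074 or 2076. Atp5f1a, the alpha subunit, gave 25675, 24446, 11338, 9622, 11924, 10343, 12666 and 9418, again with no overlap between arrays 2074 and 2076 and the rest, and an inner range of 2.54-fold (1.32-fold at the lowest without array 2074 or 2076). Atp5f1b, the catalytic beta subunit, gave 92231 and 91121 on arrays 2074 and 2076, with 42117 to 71299 on the other 6, an inner range of 2.02-fold that any of 5 arrays, left out alone, took under 2-fold, as did quantile normalization (1.97-fold). Atp5f1c, the gamma subunit that turns inside the head, did not share the pattern: its signals ran from 21984 on array 2196 to 28552 on array 2194 with a median of 25843, an inner range of 1.19-fold. Atp5f1e, the epsilon subunit, ran from 10499 on array 2198 to 25111 on array 2195, with array 2197 next.

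The 11 other ATP synthase genes, of the membrane part, the outer stalk and the regulators, had a median inner range of 1.41-fold, against 2.02-fold for the F1 genes. Of the 11, 0 were higher on both arrays 2074 and 2076 and 2 were lower on both. Atp5mk, a small membrane subunit, gave 31930.1 and 33936 on arrays 2074 and 2076, with 48420.0 to 70083 on the other 6. Atp5mpl, another small membrane protein of the complex, gave 5874 and 6635 on arrays 2074 and 2076, with 7332 to 13401 on the other 6, where array 2194 came close to them. Atp5mc3, a gene for the c-ring that the protons turn, ran from 81133 on array 2076 to 137023 on array 2195, with a median of 99599 and an inner range of 1.48-fold. Atp5if1, the inhibitor that stops the enzyme from running backwards, ran from 9082 on array 2074 to 13998 on array 2197, with arrays 2074 and 2199 lowest. A dimmer Atp5if1 probe set ran from 574 on array 2194 to 2018 on array 2198, with a log2 inner range of 1.19. Another ran from 326 on array 2074 to 930 on array 2195, with 0.53. Atp5pd, a stalk subunit, had the narrowest inner range of the complex, 1.13-fold, with signals of 12069.9 on array 2199 to 17368 on array 2197.

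**Figure D3:**
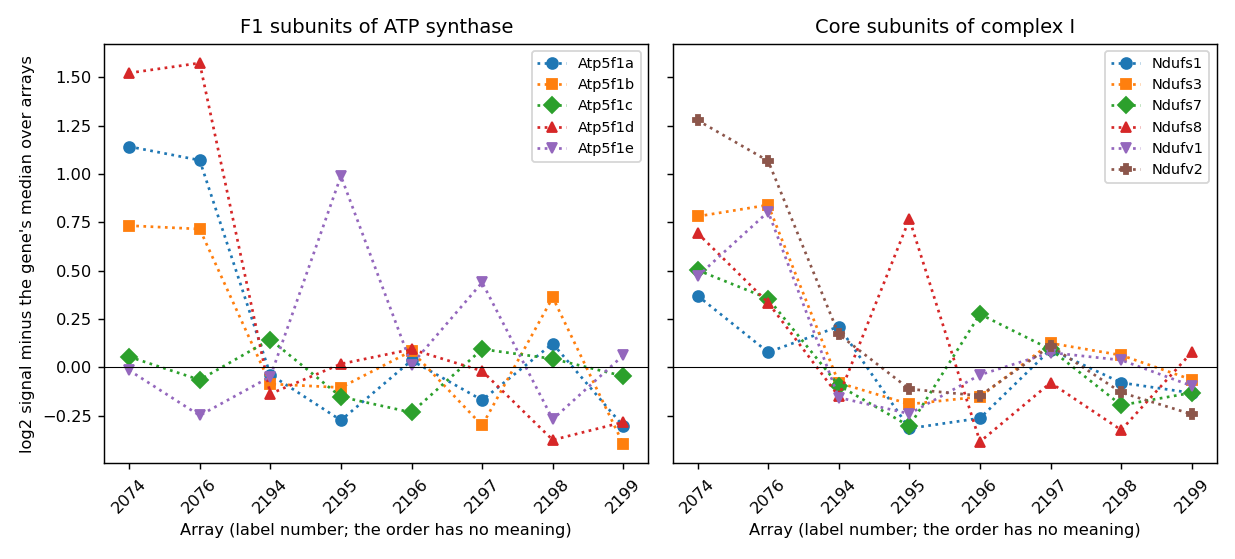
Log2 signal minus the gene's median over arrays (vertical axis) on each of the 8 arrays for the 5 F1 subunits of ATP synthase (left) and the 6 measured core subunits of complex I (right). Dotted lines only join points of 1 gene; Atp5f1d, Atp5f1a and Atp5f1b, and Ndufv2, Ndufs3, Ndufv1 and Ndufs7, are highest on arrays 2074 and 2076, while Atp5f1c stays near 0.

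Complex I showed a contrast between its nuclear-encoded core subunits and its many accessory subunits. The 6 measured core genes had a median inner range of 1.72-fold, near the 1.71-fold of all measured genes. Of these 6, 4 were higher on both arrays 2074 and 2076 than on the others and 0 lower, against 13.6% and 14.5% of all measured genes. The 28 accessory genes had a median of 1.38-fold, with 3 higher and 6 lower. Ndufv2, an iron-sulphur subunit of the NADH-oxidising tip, had signals of 16143, 13951, 7489.5, 6159, 6012, 7188, 6083 and 5627, with arrays 2074 and 2076 clear of the rest and an inner range of 2.32-fold (1.25-fold at the lowest without array 2074 or 2076). Ndufv1, which binds NADH, gave 10086 and 12713 on arrays 2074 and 2076, with 6162 to 7674 on the other 6. Ndufs3, in the arm that leads electrons to ubiquinone, gave 7471 and 7783 on arrays 2074 and 2076, with 3810.5 to 4742 on the other 6, with no overlap and an inner range of 1.91-fold (1.22-fold at the lowest without array 2074 or 2076). Ndufs7, an iron-sulphur subunit next to the ubiquinone site, gave 5295 and 4782 on arrays 2074 and 2076, with 3026 to 4522 on the other 6, but array 2196 was nearly as high as array 2076. Ndufs8, another iron-sulphur subunit, was high on array 2195 as well as on these: its signals were 2908, 2265, 1619, 3057, 1376, 1700.2, 1435 and 1897, and its inner range 2.03-fold (1.58-fold at the lowest without array 2074, 2195, 2196 or 2198). Ndufs1, the largest subunit, whose promoter is shown above, ran from 3784 on array 2195 to 6089 on array 2074, and arrays 2074 and 2076 did not stand apart in it.

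Among accessory subunits the genes lower on both arrays 2074 and 2076 were Ndufa1, Ndufa3, Ndufa4, Ndufa12, Ndufb2 and Ndufs4, and those higher were Ndufa9, Ndufa13 and Ndufb7. Ndufa4, now known to sit with complex IV, gave 13662 and 14379 on arrays 2074 and 2076, with 18113 to 25141 on the other 6. Ndufa1, a small membrane subunit, gave 33425 and 32478 on arrays 2074 and 2076, with 49758 to 79710.3 on the other 6. Ndufa9, near the ubiquinone site, gave 9115 and 11939 on arrays 2074 and 2076, with 4918 to 7986 on the other 6; a dimmer probe set of the same gene, at 177 and 214 there against 344 to 605 elsewhere, went the other way and was at the floor on 3 arrays. Ndufb3 had the widest inner range of the accessory genes, 1.94-fold, with signals from 10578 on array 2074 to 23016 on array 2197. Ndufb5 had the narrowest of the complex, 1.12-fold, from 16787 on array 2198 to 20615 on array 2197. Counted over all pairs of arrays, 2195 and 2197 had the most members on the high side after 2074 and 2076, and were picked after these counts were seen. Both lay above the other 6 in 14 members, of which 10 were complex I accessory genes, against 5.35% of all measured genes. With no scaling these were 13 members, against 4.05% of all genes, and after quantile normalization 11, against 4.74%. Array 2195 was the highest for 19 members, against 23.7% of all genes, whose own median there was 0.10 above their usual log2 level, and array 2199 the lowest for 15, against 12.4%. With no scaling array 2199 was the lowest for 12 members, against 10.5%, and after quantile normalization for 9, against 10.1%, a count near the all-gene share.

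In complex II, succinate dehydrogenase, 3 of the 4 genes had the same arrays on top. Sdha, the flavoprotein that oxidises succinate, had signals of 21516, 23077, 15655, 11149, 14595, 12967, 19922 and 13885. Sdhb, the iron-sulphur subunit, gave 15471 and 16175 on arrays 2074 and 2076, with 7193 to 10925 on the other 6. Sdhc, a membrane anchor, gave 10486 and 10148 on arrays 2074 and 2076, with 4276 to 8985 on the other 6. In all 3 genes arrays 2074 and 2076 lay above every other array, with array 2198 next, and the inner range was 1.66-fold for Sdha and 2.07-fold for Sdhb (1.46-fold at the lowest without array 2074, 2076, 2195 or 2199). That of Sdhc was just past 2-fold, and under it whichever array was left out. Sdhd, the other anchor, had its highest signal on array 2198 and ran from 7121 on array 2195 to 13608 on array 2198, with 10958 and 10467 on arrays 2074 and 2076, inside the range of the rest. A dimmer Sdhd probe set ran from 3579 to 5270 and had arrays 2074 and 2076 among its lower values, so the probe sets of Sdhd disagree on that side.

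A complex's score on an array, the median over its measured genes of the log2 signal minus the gene's own median, puts the complexes side by side. For complex II the scores were 0.56, 0.62, 0.06, -0.44, -0.06, -0.24, 0.42 and -0.33, an inner range of 0.88. For complex I they were 0.06, 0.05, -0.08, 0.10, -0.04, 0.12, 0.00 and -0.11, an inner range of 0.18, and for complex V 0.04, -0.06, -0.06, 0.10, 0.01, 0.05, 0.07 and -0.15, an inner range of 0.13. Complex III gave 0.12, 0.34, -0.19, 0.03, -0.03, 0.11, 0.03 and -0.14, with 0.26. Complex IV gave -0.44, -0.02, -0.03, 0.13, -0.02, 0.08, 0.09 and -0.14, with 0.24, and its single low value was on array 2074 (-0.33 there with no scaling and -0.23 after quantile normalization). The same score over all measured genes stayed between -0.04 and 0.10. The complex II score had arrays 2074 and 2076 highest and array 2195 lowest with no scaling and after quantile normalization too. A score over 4 genes is more easily moved than one over 34, and complexes I and V hold genes on either side for arrays 2074 and 2076, which a median does not show. The score of the complex I core genes alone was 0.60 and 0.58 on arrays 2074 and 2076, with -0.21 to 0.09 on the rest, and that of the F1 genes 0.73 and 0.72, with -0.28 to 0.04.

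**Figure D4:**
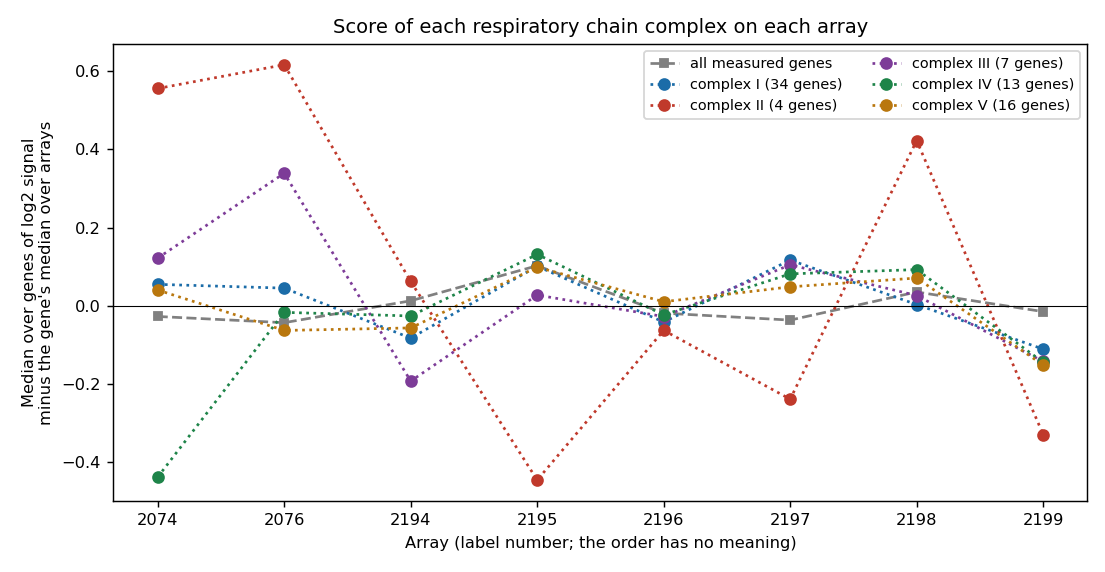
Score of each complex (vertical axis, median over its measured genes of log2 signal minus the gene's median) on each of the 8 arrays (horizontal axis); dotted lines only join points of 1 complex. Complex II runs from -0.44 on array 2195 to 0.62 on array 2076, while complexes I and V stay between -0.15 and 0.12 and complex IV is at -0.44 on array 2074.

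In complex III 1 gene of 7 passed 2-fold. Uqcrfs1, the Rieske iron-sulphur protein that takes electrons from ubiquinol, had signals of 17808, 13796, 6689, 6031, 8729.8, 6131, 11819.9 and 5938 and an inner range of 2.29-fold (1.96-fold at the lowest without array 2074 or 2076). Arrays 2074 and 2076 were the highest, and array 2198 lay between them and the other 5. Uqcr11, a small subunit, gave 8444 and 9137 on arrays 2074 and 2076, with 5802 to 7343 on the other 6. The large core proteins were below 2-fold: Uqcrc1 ran from 10826 on array 2197 to 17252 on array 2076 (1.42-fold) and Uqcrc2 from 8603 on array 2196 to 11979.9 on array 2074 (1.23-fold). For a dimmer Uqcrc2 probe set the log2 inner range was 0.98, and the mean of both gave 1.58-fold. Uqcrq, a small subunit, had the narrowest log2 inner range, 0.27, from 6247 on array 2194 to 12055 on array 2197.

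Complex IV genes come in isoforms, some broadly expressed and some kept to muscle, lung or testis. The broad isoforms that follow were above the array median on all 8 arrays. Cox4i1, the regulatory subunit, gave 7399 and 8076 on arrays 2074 and 2076, with 9993 to 14069 on the other 6, so it was lowest on those arrays. Cox7a2l, which helps join complexes III and IV into supercomplexes, gave 25058 and 20289 on arrays 2074 and 2076, with 38878 to 58391 on the other 6, with no overlap and an inner range of 1.92-fold (1.24-fold at the lowest without array 2074 or 2076). Cox6c was lower on both as well, and Cox8a was the only complex IV gene higher on both, at 34284 and 35123 against 23899.5 to 32297. Cox6a1 (16002 on array 2199 to 20529 on array 2076, 1.14-fold) and Cox6b1 (14663 on array 2199 to 21903 on array 2076, 1.15-fold) were among the steadiest members.

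The restricted isoforms were near or below the array median. Cox4i2 (lung), Cox6a2 and Cox8b (heart and muscle), Cox6b2 (testis) and Ndufa4l2, a hypoxia-linked relative of Ndufa4, were not measured, and neither was Ndufb8, an accessory subunit of complex I; a probe set near background bounds the signal and does not show that the RNA is absent. Cox6b2 and Cox8b were at or under the floor, the array's 40th percentile, on all 8 arrays. Cox7a1, the muscle and heart isoform, was measured, with signals of 151, 141, 631, 796, 352, 141, 482 and 523 and 3 arrays at the floor, so its inner range of 2.14-fold is a lower bound (on the log2 scale 2.14 with a floor at the 25th percentile and 2.16 with none, wider than Atp5f1d at 1.81). After quantile normalization it was 1.71-fold, and it was under 2-fold without array 2194 or 2195. Of the 7 muscle markers listed, 1 was measured, Myh6, and its signal ran from 42.0 on array 2198 to 827 on array 2195, the array on which Cox7a1 was highest; its part was not tested. Cox7b2 (testis) was at the floor on 6 arrays. Cox6c-ps1, by its name a pseudogene of Cox6c, ran from 274 on array 2194 to 660.1 on array 2196, and its probe set may share sequence with Cox6c.

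**Figure D5:**
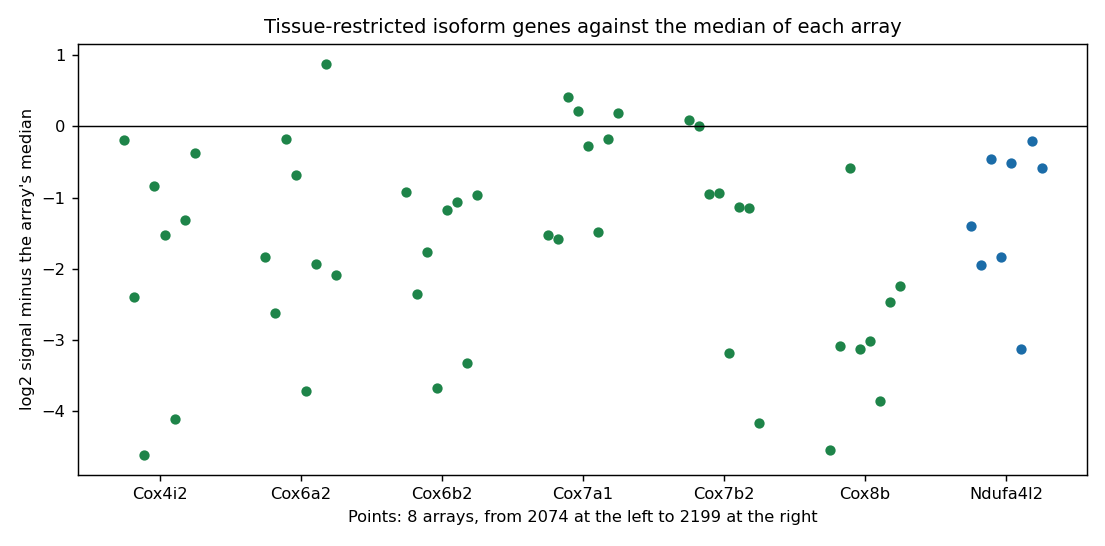
Log2 signal minus the array's median (vertical axis) of 7 tissue-restricted isoform genes, with 1 point for each of the 8 arrays. Most points lie under 0, the array's median, and Cox7a1 is above it on 3 arrays.

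Genes that serve the chain were read from lists of the pathway. Among assembly factors, which build the complexes, 9 of 42 measured (21.4%) reached 2-fold, against 29.8% of all measured genes. That share depends on signal, with 41.5% in the dimmest class of genes and 17.7% in the brightest. On both arrays 2074 and 2076, 3 were higher and 7 lower, where the all-gene shares are 13.6% and 14.5%. Nubpl, which inserts iron-sulphur clusters into complex I, ran from 85.4 on array 2197 to 988 on array 2195 with 3 arrays at the floor (at least 2.69-fold, 1.66-fold at the lowest without array 2195 or 2198), and Ecsit, a complex I assembly factor, from 555 on array 2196 to 2023 on array 2195 (2.44-fold, 1.80-fold at the lowest without array 2196 or 2197). Among electron carriers and exchangers 0 of 10 reached 2-fold, against 29.8% of all measured genes and 17.7% of the brightest class of genes. Of the 10, 4 were higher on both arrays 2074 and 2076 and 0 lower, against 13.6% and 14.5% of all measured genes. Slc25a3, the phosphate carrier that supplies ATP synthase, gave 61189 and 56475 on arrays 2074 and 2076, with 19650.0 to 45546 on the other 6. Etfdh, which feeds electrons from fat oxidation to ubiquinone, ran from 796 on array 2197 to 1992 on array 2198. Among 14 tricarboxylic acid cycle genes 2 (14.3%) reached 2-fold, against 29.8% of all genes and 17.7% of the brightest class. Arrays 2074 and 2076 were high in 1 of these 2 genes and low in the other. Cs, citrate synthase, gave 11642 and 10032 on arrays 2074 and 2076, with 3364 to 5954 on the other 6. Pdhb, a subunit of pyruvate dehydrogenase, gave 13834 and 10969.9 on arrays 2074 and 2076, with 26313 to 31792 on the other 6. Their inner ranges were 2.68-fold (1.58-fold at the lowest without array 2074 or 2076) and 2.09-fold (1.09-fold at the lowest without array 2074 or 2076). Cs was at 1.73-fold with the mean of its probe sets, and Pdhb at 1.93-fold with no scaling and 1.94-fold after quantile normalization, so each lost its call there.

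The mitochondrial ribosome, which makes the subunits of the mitochondrial genome, had 10 of 72 genes (13.9%) past 2-fold. The share was 29.8% of all genes and 17.7% of the brightest class. On both arrays 2074 and 2076, 13 were higher and 13 lower, against 13.6% and 14.5% of all genes. Mrpl54 gave 10425 and 9828 on arrays 2074 and 2076, with 3402 to 5442 on the other 6, and Mrpl38 gave 1776 and 1749 on arrays 2074 and 2076, with 64.8 to 1070.1 on the other 6, where the lowest array was at the floor. Their inner ranges were 2.59-fold (1.43-fold at the lowest without array 2074 or 2076) and 4.02-fold (2.45-fold at the lowest without array 2074 or 2076). Of 16 regulators of mitochondrial biogenesis 7 (43.8%) reached 2-fold, against 29.8% of all genes, 41.5% of the dimmest class of genes and 17.7% of the brightest. Of the 7, Twnk, Polrmt, Esrrg and Esrrb were at the floor on 1 to 3 arrays. On both arrays 2074 and 2076, 4 of the 16 were higher and 2 lower, against 13.6% and 14.5% of all genes. Twnk, the mitochondrial DNA helicase, gave 1060.5 and 839 on arrays 2074 and 2076, with 255 to 732 on the other 6, with 3 arrays at the floor (at least 2.51-fold, 1.79-fold at the lowest without array 2194 or 2197; 1.68-fold with the mean of its probe sets), and Esrrb, an ERR receptor, ran from 68.9 on array 2195 to 1222 on array 2194. Nrf1 and Yy1, named after their values were seen because their motifs were searched, were both lowest on arrays 2074 and 2076: Nrf1 gave 1540.4 and 2863 on arrays 2074 and 2076, with 3465 to 6288 on the other 6, and Yy1 10429.6 and 16546 on arrays 2074 and 2076, with 16638 to 36122 on the other 6. Of promoters of members high on both arrays, 1 of 15 held the NRF1 motif and 4 the YY1 motif, and of those low on both, 3 of 10 and 1. Among all members with a promoter the shares were 23.6% and 15.3%, and among measured genes 12.9% and 5.75%. A link of these motifs to the signals of Nrf1 or Yy1 was not tested. The mitochondrial genome's own COX1 and COX2, catalytic subunits of complex IV, ran from 210092 on array 2074 to 448774 on array 2195 and from 126951 on array 2199 to 199327 on array 2195. Neither had arrays 2074 and 2076 at one end together.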

How the data were processed

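Biotin-labelled RNA of 8 granulosa cell samples was measured on Affymetrix arrays, per the labels. The deposited values are linear signal intensity, made by the authors with MAS5 per the submitters' processing notes, with no version stated. In all the table held 31099 probe sets, of which 57 were controls and left out; 20826 others named 1 gene, 436 several and 9780 none in the platform annotation, which can be old. MAS5 had scaled each array to a common trimmed mean before deposit and is noisy at low signal.

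Log2 signals were shifted so that the probe sets brighter than the median of every one of the 8 arrays had the same median on each. Values under an array's 40th percentile were set to it, the floor. Each gene was read from its brightest probe set, and the 80 members had 89. Printed signals are scaled but not floored, while ranges use floored values. The labels gave no groups, so no group mean, error or test was computed, and precision is limited by the number of arrays. Dixon's ratio at 0.526 marked a gene with 1 array far from the rest. Calculations used Python 3.11.15 with pandas 2.3.3, numpy 2.4.6 and scipy 1.17.1, and the steps were tested on simulated data.

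Named are, in each complex, up to 3 measured members of widest inner range and the narrowest 1, the Sdh genes, core complex I subunits, the main complex III subunits, isoform genes of complex IV, F1, c-ring and inhibitor genes of complex V, and the 2 widest genes of each pathway list. Members of a count, the genes nearest the 2-fold line, Ndufb8, Cox7b2, Atp5f1e, the cell type markers, Nrf1 and Yy1 were named after their values were seen. The members, the lists and the interest in arrays 2074 and 2076 were chosen with earlier results of these data known. The alternatives were quantile normalization or no scaling, no floor or one at the 25th percentile, another filter or none, the mean of probe sets, the full range, the mean of members, another place for Ndufa4 and Cyc1, arrays 2194 to 2199 alone, and leaving out each array in turn.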

Additional observations from a re-analysis of the deposited data

Results flagged for a closer look

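In 3 of the 91 results checked, 1 array lay far from the other 7, by the gap to its nearest neighbour over the whole range of log2 values; chance alone marks about 1 in 20. Ndufa11, an accessory subunit of complex I, had 4479 on array 2195 against 1851 to 2673 elsewhere, a ratio of 0.584. Ndufa8, a complex I subunit held by disulphide bonds, had 6933 on array 2198 against 3723 to 4934, a ratio of 0.547. Ndufb4, an accessory subunit of the membrane arm, was low on array 2195, at 10612 against 12552 to 14451, a ratio of 0.544. The cause was not tested.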

How the results depend on the processing

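For the 44 single genes named with a range, 677 of the values under alternatives stayed near the main value and 65 moved. Most of what moved rests on arrays 2074 and 2076. Without array 2074 or 2076 the other becomes the single extreme array, which the inner range leaves out by construction. The number of members past 2-fold, 9 over all arrays, was 1 to 7 when 1 array was left out: 1 without array 2074 (Cox7a1), 2 without array 2076 (Cox7a1 and Ndufs8) and 5 without array 2195. Over arrays 2194 to 2199 alone it was 0, and the complex II score then had an inner range of 0.36. With the full range 28 members reached 2-fold (71.4% of all measured genes), the median log2 range was 0.87, and the range of the score was 0.53 for complex III, 0.57 for complex IV and 0.25 for complex V. The inner range of the complex I score was 0.10 (without array 2197) to 0.19 when 1 array was left out. The Cox7a1 log2 inner range was 2.16 with no floor. Arrays give no read depth, and signals near the floor have no order.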
